A study of Mus musculus with 5 samples.

Results

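The insulin-like growth factor (IGF) system was described here through 10 genes, picked by symbol from the 24860 gene symbols that were counted. They comprise the ligands Igf1 and Igf2, the receptors Igf1r and Igf2r, and the binding proteins Igfbp2, Igfbp3, Igfbp4, Igfbp5, Igfbp6 and Igfbp7; each symbol was found in all 5 libraries. IGF1 and IGF2 are secreted growth factors that bind the tyrosine kinase IGF1R, which signals through the insulin receptor substrates to PI3 kinase and AKT. IGF2R carries IGF2 to lysosomes, and the secreted IGF-binding proteins hold the ligands in the extracellular fluid, where proteases such as Pappa release them. In the mammary gland the system is known for driving epithelial growth, and Igfbp5 for its high expression as the gland regresses after lactation.

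SSM2 is a mouse mammary tumour cell line; tumours raised from it were dissociated and profiled by droplet single-cell RNA sequencing, which counts unique molecular identifiers (UMIs), each standing for one captured RNA molecule at the 3' end. Mice of 10 to 12 weeks received 100000 SSM2 cells in the fourth mammary gland on the left side together with a pellet under the skin of the neck, and tumours were taken 28 to 62 days later. The progesterone group, 3 libraries, carried 60 mg progesterone pellets made for 60 days of release. The placebo group, 2 libraries, carried placebo pellets described by the same dose and duration. Progesterone 1 and Placebo 1 were labelled batch 1, and Progesterone 2, Progesterone 3 and Placebo 2 batch 2; what the batches differ in is not given in the sources used here, and neither is the strain or genotype of the hosts. No label says that every library came from a mouse of its own, and one identifier, followed by L or R, stands in the names given to both Progesterone 2 and Progesterone 3. The p-values therefore measure the spread between libraries, which may be partly technical.

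After filtering, 2191, 5271 and 5229 cells were kept in Progesterone 1, 2 and 3, and 4744 and 5583 in Placebo 1 and 2. Median UMIs per cell ranged from 6045 in Progesterone 1 to 23935 in Progesterone 3, and any pair of libraries shared 2 to 12 cell barcodes. Cell classes were built by clustering without the IGF genes and named from marker genes, so that "epithelial" means epithelial-like, and so on for each class; the macrophage class includes monocyte-like cells. Placebo 1 stood apart: 4105 of its 4744 cells were T cells and 1 was epithelial, whereas Placebo 2 held 2792 epithelial cells and Progesterone 1, 2 and 3 held 45, 2966 and 3192. Progesterone 1 also had few epithelial cells and only 2 fibroblasts, so epithelial cells and fibroblasts of placebo tumours come from Placebo 2 alone. Levels are given as the gene's UMIs per 1000000 UMIs of the class in that library (CPM), where the class had 10 or more cells. A class level can be low because few of its cells hold the RNA or because each holds little, and the CPM does not tell these apart.

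Across the classes, Igf1 RNA was found mainly in macrophages and fibroblasts, and the binding proteins mainly in fibroblasts and endothelial cells. Igf1 averaged 158 ± 89.0 CPM in macrophages (SD, n = 5 libraries) and 144 ± 47.5 CPM in fibroblasts (n = 3), which overlapped. Endothelial cells had 48.4 ± 33.1 CPM (n = 3), and any other named class no more than 2.26 CPM. Single cells held most endothelial Igf1 UMIs, 12 of 13 in Placebo 1 and 11 of 14 in Placebo 2. Without those cells the levels were 8.14 and 8.10 CPM, and endothelial cells of Progesterone 1 had 3 UMIs. Macrophages held 81.1%, 87.4% and 65.7% of all Igf1 UMIs in Progesterone 1, 2 and 3 and 60.4% in Placebo 2, but 10.0% in Placebo 1, which had 4 of its 40 Igf1 UMIs in 15 macrophages. Igf2, the fetal growth factor, was close to absent: it reached 98.1 ± 168 CPM in endothelial cells (n = 3) and less than 1 CPM in every other named class. That endothelial mean rested on Placebo 1, where 44 UMIs came from 3 of 17 cells and 33 of them from a single cell; the level was 2.4 CPM in Placebo 2 endothelial cells, and no UMI was seen in those of Progesterone 1.

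Both receptors were spread over many classes. Igf1r averaged 1206 ± 745 CPM in neutrophils (SD, n = 4), above 317 ± 100 CPM in T cells (n = 5), 220 ± 55.8 CPM in plasmacytoid dendritic cells (pDC, n = 4), 195 ± 102 CPM in endothelial cells (n = 3), 151 ± 15.1 CPM in fibroblasts (n = 3) and 123 ± 12.4 CPM in macrophages (n = 5). Epithelial cells followed with 63.2 ± 27.97 CPM (n = 4) and natural killer (NK) cells with 50.2 ± 10.7 CPM (n = 3), while conventional dendritic cells (cDC) had 27.5 ± 15.2 CPM (n = 3) and B cells 13.3 ± 12.0 CPM (n = 4). The ranges over libraries of neighbours in this order overlapped, except those of neutrophils above T cells and of macrophages above epithelial cells. Igf2r varied less: its 6 highest classes, from neutrophils at 81.6 ± 98.5 CPM (n = 4) through endothelial cells, fibroblasts, NK cells and epithelial cells to T cells at 57.8 ± 14.4 CPM (n = 5), overlapped with their neighbours in the order. Below them Igf2r had 37.5 ± 9.47 CPM in cDC, 22.3 ± 11.8 CPM in B cells, 20.9 ± 15.1 CPM in macrophages and 3.52 ± 4.94 CPM in pDC.

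Igfbp2 was a fibroblast transcript in these tumours, with 779 ± 209 CPM there (SD, n = 3) and 2.33 ± 2.96 CPM in the next class, cDC (n = 3). Igfbp3, which carries most circulating IGF1, had 454 ± 411 CPM in endothelial cells and 231 ± 58.3 CPM in fibroblasts (n = 3 each), with overlapping ranges, and 1.55 ± 1.38 CPM in cDC. Igfbp4, the binding protein cleaved by Pappa, averaged 924 ± 263 CPM in fibroblasts, 448 ± 282 CPM in endothelial cells (n = 3 each), whose ranges overlapped, 66.7 ± 64.8 CPM in T cells (n = 5), 57.0 ± 82.4 CPM in neutrophils (n = 4) and 33.5 ± 41.4 CPM in macrophages (n = 5). Igfbp6, which prefers IGF2, averaged 653 ± 136 CPM in fibroblasts (n = 3), 132 ± 137 CPM in neutrophils (n = 4) and 13.2 ± 4.27 CPM in macrophages (n = 5). Igfbp7, a relative with low affinity for IGFs, averaged 2061 ± 936 CPM in endothelial cells and 1611 ± 454 CPM in fibroblasts (n = 3 each), which overlapped, against 12.3 ± 10.8 CPM in T cells (n = 5). Igfbp5 had its highest mean in epithelial cells at 306 ± 200.3 CPM (n = 4), with fibroblasts at 217 ± 163 CPM (n = 3) and endothelial cells at 174 ± 295 CPM (n = 3), and the ranges of these 3 classes overlapped.

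**Figure D1:**
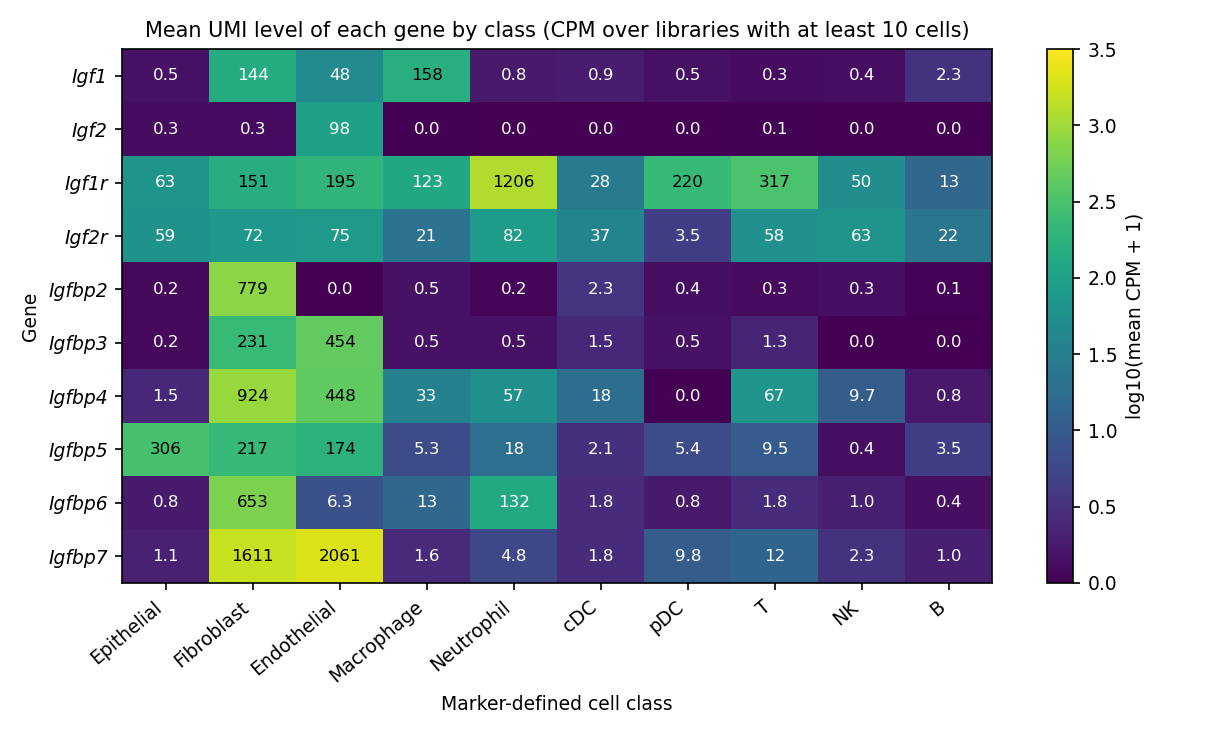
Mean level of the 10 genes (rows) in 10 marker-named classes (columns), taken over libraries in which the class had 10 or more cells; the number is the mean in CPM and the colour is log10 of the mean CPM plus 1. Fibroblasts hold Igfbp2 (779 CPM) with little elsewhere, Igf1 is found in macrophages and fibroblasts (158 and 144 CPM), and Igf1r is highest in neutrophils (1206 CPM).

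Within classes, single clusters carried much of the signal. Macrophage cluster 3, led by Apoe, C1qa, Trem2 and Spp1, had 372, 281 and 208 CPM of Igf1 in Progesterone 1, 2 and 3 and 304 CPM in Placebo 2. Cluster 13, led by Retnla and Mrc1, had 38.8, 7.9 and 22.0 CPM in Progesterone 1, 2 and 3 and 65.8 CPM in Placebo 2, and the monocyte-like cluster 20 had 4.6, 3.6 and 9.9 CPM against 17.1 and 1.4 CPM in Placebo 1 and 2. Igf1 was thus higher in cluster 3 than in clusters 13 and 20 in each of these 4 libraries with cells of all 3 clusters. Igfbp4 had the reverse order in macrophages, with 41.2, 57.2 and 35.5 CPM in cluster 13 of Progesterone 1, 2 and 3 and 165 CPM in that of Placebo 2, against 8.5, 23.9, 19.3 and 34.6 CPM in cluster 3 of the same 4 libraries. Among T cells, Igfbp4 was high in cluster 0, led by the naive-cell genes Lef1, Satb1 and S1pr1, at 276 CPM in Progesterone 1 and 231 and 156 CPM in Placebo 1 and 2. It was low in cluster 9, whose leading genes were Ikzf2, Ctla4, Icos, Tnfsf8 and Il2ra. There it had 16.6, 0 and 0 CPM in Progesterone 1, 2 and 3 and 22.9 and 9.64 CPM in Placebo 1 and 2.

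Neutrophils were divided in the same way. The mature-like cluster 16 had 2818, 1062 and 1115 CPM of Igf1r in Progesterone 1, 2 and 3, whereas cluster 23.0, marked by the granule genes of immature neutrophils Camp, Ngp and Elane, had 464 CPM in Progesterone 1 and 414 CPM in Placebo 1. Of the Igfbp4 UMIs of neutrophils, 53 of 56 in Progesterone 1 and all 45 in Placebo 1 lay in cluster 23.0, at 137 CPM and 190 CPM. T cells of Placebo 1 had 416 CPM of Igf1r and 170 CPM of Igfbp4, and their part in these Placebo 1 values was not tested.

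**Figure D2:**
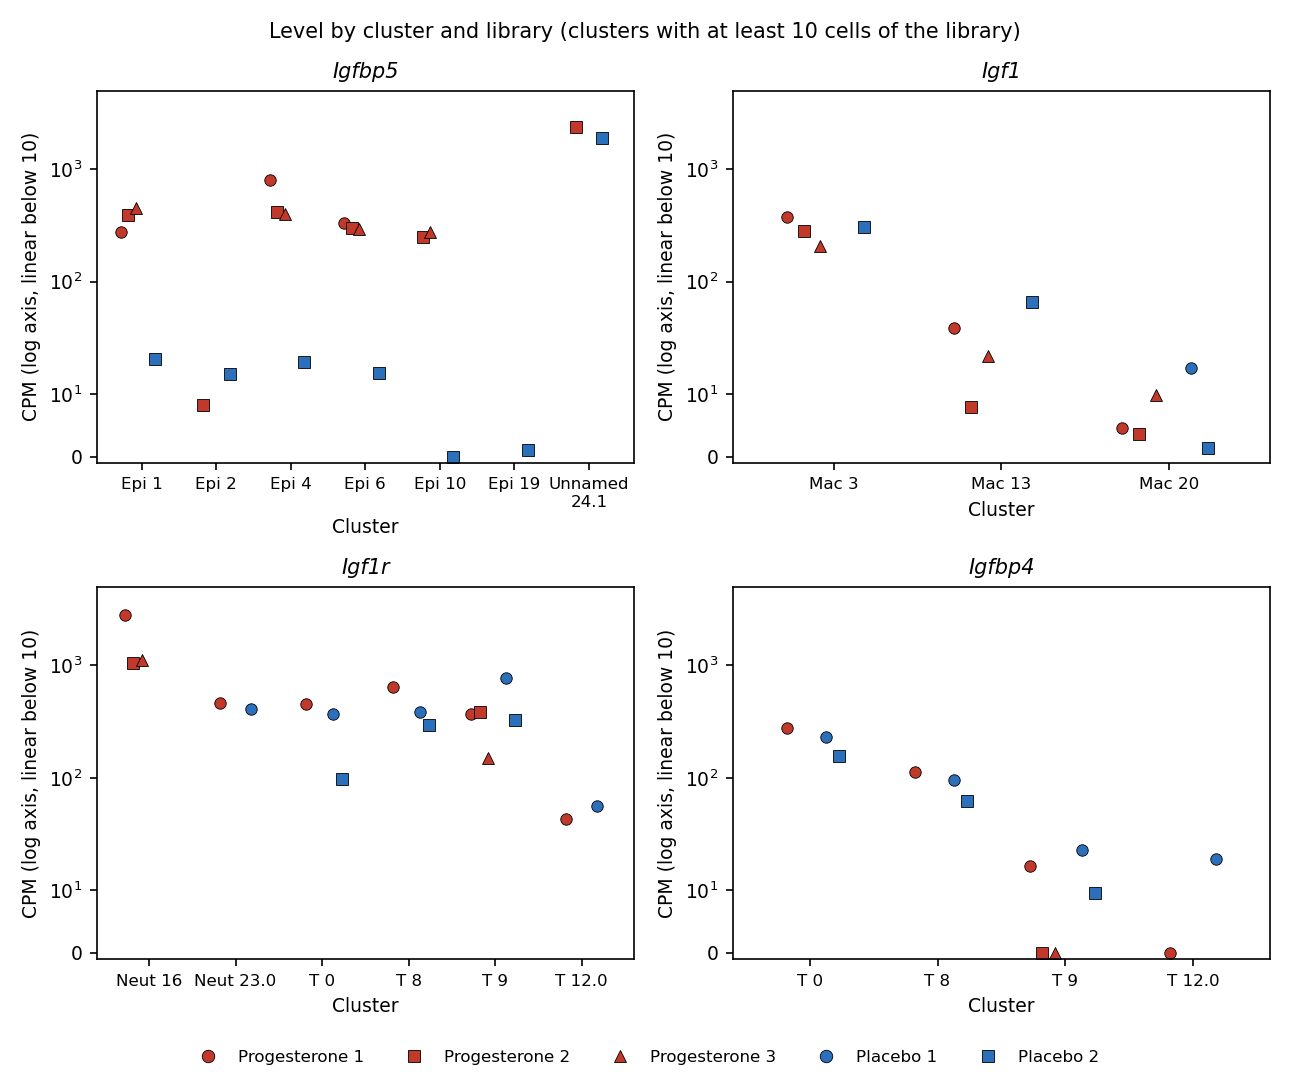
Level (CPM, log axis that is linear under 10) of Igfbp5 in epithelial clusters (Epi) and in the unnamed cluster where it was highest, of Igf1 in macrophage clusters (Mac), of Igf1r in neutrophil (Neut) and T cell clusters, and of Igfbp4 in T cell clusters; each point is a library with 10 or more cells in the cluster, progesterone in red left of placebo in blue. Igf1 is highest in macrophage cluster 3 (208 to 372 CPM), and Igfbp5 is at 15.2 CPM in cluster 2, which holds most Placebo 2 epithelial cells.

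The main contrast asked how tumours of progesterone-treated mice differed from those of placebo-treated mice. In epithelial cells, the 3 progesterone libraries had far more Igfbp5 RNA than Placebo 2 and more Igf1r RNA, while Igfbp2 and Igfbp6 were lower at trace levels. Calls were made with edgeR's quasi-likelihood test on UMIs summed per library, with Benjamini-Hochberg adjustment over all genes of the class and a threshold of 0.05. Of the 10 genes, all tested, 3 were called higher and 2 lower; over all 16235 genes tested, 13.0% were called, 5.91% higher and 7.13% lower. The median log2 ratio was -0.13 over the 10 genes and 0.02 over all genes. All 8 epithelial markers were detected in each of these libraries, with a summed level of 16172, 17924 and 18808 CPM in Progesterone 1, 2 and 3 against 28609 CPM in Placebo 2. The fit used 3 progesterone libraries and 1 placebo library, so the spread comes from progesterone tumours alone, and treatment cannot be told apart from whatever else set Placebo 2 apart.

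The upstream sequences of Igfbp5 and Igf1r are shown because these are the members whose epithelial calls held under all 11 alternatives tried. Each is taken from the 250 bases before the RefSeq transcription start on GRCm38.p6, written 5' to 3' on the gene's strand, with motif matches in capitals. For Igfbp5 the last 19 of them, which GENCODE annotates as exon, were neither printed nor searched, so that its stretch ends just before the GENCODE start. The Igfbp5 stretch is the 231 bases at chr1:72874885-72875115 on the minus strand and the Igf1r stretch the 250 bases at chr7:67952007-67952256 on the plus strand.
Igfbp5: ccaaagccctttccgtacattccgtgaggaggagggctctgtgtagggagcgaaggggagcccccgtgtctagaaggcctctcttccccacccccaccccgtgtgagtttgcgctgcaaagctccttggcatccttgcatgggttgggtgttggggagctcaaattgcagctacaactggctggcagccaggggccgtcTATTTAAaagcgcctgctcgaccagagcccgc
Igf1r: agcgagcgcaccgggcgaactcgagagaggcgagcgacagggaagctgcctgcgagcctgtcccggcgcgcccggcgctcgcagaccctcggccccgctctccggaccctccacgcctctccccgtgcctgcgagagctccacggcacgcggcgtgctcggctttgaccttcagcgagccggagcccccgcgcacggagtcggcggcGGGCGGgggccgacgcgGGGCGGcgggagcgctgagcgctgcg
The capitals in Igfbp5 mark a match to the TATA-box-like TATNNAA that begins 51 bases before the RefSeq start, a motif present in 28.02% of 32851 promoter windows of that length. The capitals in Igf1r mark 2 matches to the GC box GGGCGG, 43 and 26 bases before the start, a motif present in 32.7% of windows of its length. Both strands were searched. The palindrome GNACANNNTGTNC, read by progesterone and glucocorticoid receptors, and its AGAACA arm were in neither stretch; they occur in 0.371% and 15.01% of all windows at the Igfbp5 length and in 0.387% and 16.1% at the Igf1r length. Igfbp5 had no GGGCGG, which 29.97% of windows hold, and Igf1r no TATNNAA, which 29.0% hold. The GC content was 60.6% for Igfbp5 and 77.6% for Igf1r, against medians of 51.9% and 52.4% over all windows of the same lengths.

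Igfbp5, which binds IGFs and the extracellular matrix, had 464 CPM (1156 UMIs), 360 CPM (58745 UMIs) and 387 CPM (58030 UMIs) in epithelial cells of Progesterone 1, 2 and 3, against 12.9 CPM (1893 UMIs) in those of Placebo 2. The progesterone libraries averaged 404 ± 54.1 CPM (SD, n = 3), 31.2 times the placebo value, and all 3 lay far above the placebo library. The log2 ratio was 4.76 with a standard error of 0.27 (edgeR adjusted p = 0.00133), and it ranged from 4.18 to 4.83 over 11 alternatives, all of them called. With each cell thinned to 2000 UMIs, Igfbp5 was detected in 20.5%, 34.5% and 36.1% of epithelial cells of Progesterone 1, 2 and 3, with exact 95% intervals of 9.80 to 35.3%, 32.8 to 36.3% and 34.4 to 37.8%, against 2.04% (1.55 to 2.64%) in those of Placebo 2. Without thinning the shares were 62.2%, 79.7% and 79.3% against 12.5%. In macrophages, which carry the gene at trace level, the thinned shares were 1.01%, 2.36% and 1.53% in Progesterone 1, 2 and 3 and 0 and 0.17% in Placebo 1 and 2, at median depths before thinning of 19683, 13536 and 12198 UMIs and 20611 and 13265 UMIs. Epithelial cells that held any Igfbp5 had a mean of 41.3, 24.8 and 22.9 UMIs of it in Progesterone 1, 2 and 3 and 5.41 in Placebo 2. Depth did not separate the groups, with epithelial medians of 41828, 49582 and 42112 UMIs against 43044.

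The epithelial cells of the 2 treatments fell largely into different clusters. Of the 2792 Placebo 2 cells, 2362 were in cluster 2 and 339 in cluster 19, whereas 11 cells of Progesterone 2 and 1 of Progesterone 3 were in cluster 2 and none in cluster 19. The progesterone cells lay in clusters 1, 4, 6 and 10, which held 40, 28, 13 and 10 of the Placebo 2 cells. Igfbp5 differed within shared clusters too. Cluster 1 had 274, 393 and 453 CPM in Progesterone 1, 2 and 3 against 20.4 CPM in Placebo 2, and cluster 4 had 803, 414 and 398 CPM against 19.1 CPM. Cluster 6 had 330, 302 and 295 CPM against 15.3 CPM. In cluster 2 the 11 Progesterone 2 cells had 3 UMIs, 8.19 CPM, against 15.2 CPM in Placebo 2. The high level was not limited to progesterone tumours. The unnamed cluster 24.1, led by the milk and secretory genes Wfdc18, Csn3 and Ltf, had 2391 CPM in its 11 Progesterone 2 cells and 1895 CPM in its 34 Placebo 2 cells. It scored best as epithelial, with endothelial close, so its cells are not in the epithelial levels above. With doublets kept and at Leiden resolution 2, a cluster led by the same 3 genes was named epithelial.

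Igf1r, the signalling receptor, had 72.7, 75.8 and 82.7 CPM in epithelial cells of Progesterone 1, 2 and 3, against 21.7 CPM in those of Placebo 2. The progesterone libraries averaged 77.04 ± 5.14 CPM (SD, n = 3) and did not overlap the placebo value; the log2 ratio was 1.64 with a standard error of 0.19 (edgeR adjusted p = 0.00725), between 1.58 and 1.71 over 11 alternatives and called in all. Thinned to 2000 UMIs, 6.82%, 14.0% and 15.8% of cells held a UMI in Progesterone 1, 2 and 3 against 4.59% in Placebo 2; the exact interval for the 44 cells of Progesterone 1, 1.43 to 18.7%, covers the placebo share. The unthinned shares were 51.1%, 81.6% and 80.6% against 49.1%. By cluster, Igf1r had 82.5, 103 and 108 CPM in cluster 1 against 49.7 CPM in Placebo 2, 77.3, 53.8 and 57.8 CPM in cluster 4 against 28.4 CPM, and 19.1 CPM in the 11 Progesterone 2 cells of cluster 2 against 21.4 CPM. Igf2r, the clearance receptor, had 52.6, 58.8 and 60.4 CPM in Progesterone 1, 2 and 3 against 64.1 CPM in Placebo 2, a log2 ratio of -0.34 that was not called (edgeR adjusted p = 0.254).

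The other epithelial calls concern traces. Igf2 had 1, 38 and 80 UMIs, in 1, 24 and 45 cells, in Progesterone 1, 2 and 3 and 4 UMIs in 4 cells in Placebo 2 (log2 ratio 3.04, standard error 0.71, edgeR adjusted p = 0.0439), and the call was kept in 4 of 10 alternatives. Igfbp6 had 2, 34 and 35 UMIs, or 0.80, 0.21 and 0.23 CPM, in Progesterone 1, 2 and 3 against 277 UMIs, or 1.89 CPM, in Placebo 2 (log2 ratio -3.07, standard error 0.43, edgeR adjusted p = 0.0112; called in 7 of 10 alternatives). Igfbp2 had 0, 23 and 15 UMIs against 67 UMIs (log2 ratio -1.95, standard error 0.43, edgeR adjusted p = 0.0388; called in 6 of 10 alternatives). Both are abundant in fibroblasts, and the epithelial traces were 0.04% and 0.03% of the fibroblast level for Igfbp6 in Progesterone 2 and 3 against 0.25% in Placebo 2, and 0.01% and 0.01% against 0.07% for Igfbp2. The summed CPM of 8 fibroblast markers in epithelial cells moved the same way, at 11.6, 15.5 and 15.6 in Progesterone 1, 2 and 3 against 29.3 in Placebo 2, where no marker was at 0; its part in these calls was not tested.

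The remaining 4 genes were not called in epithelial cells. Igfbp7 had 0.80, 0.79 and 0.94 CPM against 1.89 CPM (log2 ratio -1.28, edgeR adjusted p = 0.0551), and Igfbp3 had 1, 18 and 11 UMIs against 43 (log2 ratio -1.58, edgeR adjusted p = 0.0879). Igfbp4 had 6, 234 and 218 UMIs against 113 (log2 ratio 0.81, edgeR adjusted p = 0.204), and Igf1 had 3, 46 and 22 UMIs against 30 (log2 ratio 0.08, edgeR adjusted p = 0.957). With batch as a block, which leaves Progesterone 2 and 3 against Placebo 2, and likewise without Progesterone 1, 9 of the 10 genes were called, as were 7974 of all 16235 genes with the block and 7935 of 16197 without Progesterone 1. Without Progesterone 2 or without Progesterone 3 the calls were 2, Igfbp5 and Igf1r, among 1208 of all 15927 and 1058 of all 15872 genes.

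**Figure D3:**
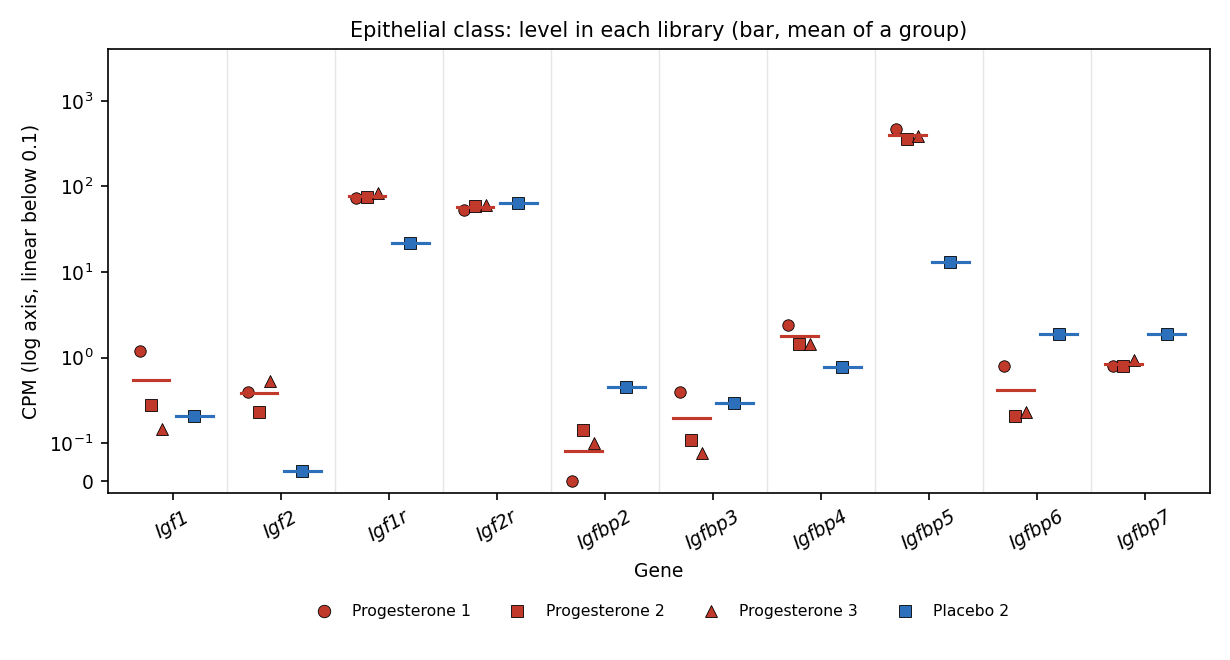
Level (CPM, log axis that is linear under 0.1) of the 10 genes in epithelial cells of each library; points are libraries, progesterone left of placebo, bars are group means, and the bar over the single placebo library is that library's value. Igfbp5 (360 to 464 against 12.9 CPM) and Igf1r (72.7 to 82.7 against 21.7 CPM) are the 2 genes above 10 CPM whose groups are apart by more than 3-fold.

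Genes around the IGF system were taken from a list of 36 pathway genes. In epithelial cells 30 were tested, 3 were called higher and 4 lower, against 5.91% of all genes called higher and 7.13% lower, and the median log2 ratio was 0.20. Akt1, a kinase downstream of PI3 kinase, had 55.8, 65.2 and 59.4 CPM in Progesterone 1, 2 and 3 against 125.2 CPM in Placebo 2 (log2 ratio -1.23, called lower). Stc2, an inhibitor of Pappa, had 2.0, 0.8 and 0.9 CPM against 0.1 CPM (log2 ratio 3.23, called higher), and Igf2bp2, an RNA-binding protein, 35.7, 42.0 and 41.8 CPM against 100.1 CPM (log2 ratio -1.49, called lower). Among the hormone receptors, Pgr had 455, 174 and 200 CPM against 226 CPM (log2 ratio 0.06, edgeR adjusted p = 0.95), and Esr1 had 307, 246 and 240 CPM against 126 CPM (log2 ratio 0.87, edgeR adjusted p = 0.046).

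In fibroblasts, the class with the most binding protein RNA, Igf1, Igfbp4 and Igfbp7 were higher in progesterone tumours and Igfbp5 was lower, the opposite of its direction in epithelial cells. The comparison set 53 cells of Progesterone 2 and 105 of Progesterone 3 against 305 of Placebo 2, with 1 residual degree of freedom. Of the 9 genes tested (Igf2 had too few UMIs), 3 were called higher and 1 lower by edgeR's quasi-likelihood test with Benjamini-Hochberg adjustment; over all 11304 genes 4.82% were called, 2.94% higher and 1.88% lower. The 8 fibroblast markers, none at 0, summed to 43180 and 43398 CPM against 36608 CPM. The median log2 ratio was 0.38 over the 9 genes and 0.00 over all genes. None of the 4 calls held when clusters of low UMI number were named too, when suspected doublets were kept, or at a finer clustering. In each of these 3 fits Progesterone 1 reached 10 fibroblasts and entered, and none of all genes was called, with 296, 230 and 267 at an unadjusted edgeR p under 0.05. With Progesterone 1 left out of the same 3 fits, an alternative chosen after seeing the data, Igf1, Igfbp5 and Igfbp7 were called in all 3 and Igfbp4 in 2.

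Igf1 had 153 and 186 CPM in fibroblasts of Progesterone 2 and 3, against 92.4 CPM in those of Placebo 2 (log2 ratio 1.06, standard error 0.22, edgeR adjusted p = 0.00317; called in 5 of 9 alternatives). These levels were 63.0% and 108.6% of the macrophage level in the progesterone libraries and 61.9% in Placebo 2, while macrophage markers in fibroblasts were 6.35% and 9.76% against 7.68% of their macrophage level; the part of macrophage RNA was not tested. Igfbp7 had 1743 and 1985 CPM against 1106 CPM (log2 ratio 0.94, standard error 0.22, edgeR adjusted p = 0.00955; 6 of 9 alternatives), and Igfbp4 had 903 and 1196 CPM against 672 CPM (log2 ratio 0.83, standard error 0.23, edgeR adjusted p = 0.0371; 4 of 9 alternatives). For each of these 3 genes both progesterone libraries lay above Placebo 2. Summed CPM of 7 pericyte markers in the class, all 7 detected, was 937 and 626 in Progesterone 2 and 3 against 659 in Placebo 2.

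Igfbp5 had 101 CPM (169 UMIs) and 147 CPM (416 UMIs) in fibroblasts of Progesterone 2 and 3, against 404 CPM (3332 UMIs) in those of Placebo 2. Both progesterone libraries lay under the placebo library, with a log2 ratio of -1.49 and a standard error of 0.22 (edgeR adjusted p = 0.00055), called in 6 of 9 alternatives that ranged from -1.52 to -0.48. The UMIs were held by few cells: 17 of 53 and 38 of 105 progesterone fibroblasts and 93 of 305 placebo fibroblasts had any, and a single cell held 29.0%, 17.5% and 8.07% of the UMIs in Progesterone 2, Progesterone 3 and Placebo 2. Leaving that cell out of each library gave 72.7 and 122 CPM against 372 CPM. Epithelial markers in fibroblasts summed to 515 and 455 CPM in Progesterone 2 and 3 against 534 CPM in Placebo 2.

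The other fibroblast genes were not called. Igfbp2 had 1016 and 699 CPM in Progesterone 2 and 3 against 621 CPM in Placebo 2 (log2 ratio 0.64, edgeR adjusted p = 0.122). Igfbp3 had 297 and 187 CPM against 209 CPM and Igfbp6 had 499 and 705 CPM against 755 CPM, with log2 ratios of 0.38 and -0.13. Igf1r had 153 and 135 CPM against 165 CPM and Igf2r had 81.4 and 68.7 CPM against 66.1 CPM, with log2 ratios of -0.02 and 0.36. Of the 36 pathway genes 29 were tested and 1 was called, against 4.82% of all genes: Plagl1, an imprinted transcription factor gene, at 58.7 and 44.2 CPM against 27.5 CPM (log2 ratio 1.06).

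The cells that held Igfbp5 RNA also differed between tumours. Epithelial cells held 68.1%, 97.8% and 97.9% of the library's Igfbp5 UMIs in Progesterone 1, 2 and 3, against 29.4% in Placebo 2, where fibroblasts held 51.7% and unnamed cells 18.7%. The unnamed cluster 26, which scored as fibroblast but had low UMI numbers, had 461, 45.6 and 108 CPM in Progesterone 1, 2 and 3 and 481 CPM in Placebo 2.

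In macrophages, where batch could be a term, Igfbp5 was the one gene called. Of 7 genes tested, 1 was called higher and none lower by edgeR's quasi-likelihood test with Benjamini-Hochberg adjustment, against 1.13% of all 11813 genes called and 0.491% called higher; the median log2 ratio was -0.73 over the 7 genes and 0.04 over all. Igfbp5 had 4.2, 10.1 and 11.2 CPM in Progesterone 1, 2 and 3 against 0 and 1.1 CPM in Placebo 1 and 2, and every progesterone library lay above both placebo libraries. Its log2 ratio was 3.02 with a standard error of 0.45 (edgeR adjusted p = 0.0066), called in 8 of 13 alternatives and not without the batch term (edgeR adjusted p = 0.971). The call was also lost without Placebo 2 (edgeR adjusted p = 0.386), without Progesterone 2 (0.117) and without Progesterone 3 (0.142), while the log2 ratio stayed between 2.73 and 3.93 over all 13 alternatives. The macrophage level was 0.90%, 2.82% and 2.89% of the epithelial level in Progesterone 1, 2 and 3, while 8 epithelial markers in macrophages were 0.64%, 4.13% and 3.42% of theirs; in Placebo 2 the shares were 8.63% and 3.72%. Summed epithelial marker CPM in macrophages was 103.96, 741 and 643 in Progesterone 1, 2 and 3 against 26.7, with 5 of 8 markers at 0, and 1064 in Placebo 1 and 2; its part in the Igfbp5 call was not tested.

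Igf1, the ligand made by macrophages, had 216, 242 and 171 CPM in Progesterone 1, 2 and 3 against 13.3 CPM (4 UMIs in 15 cells) and 149 CPM in Placebo 1 and 2. All 3 progesterone libraries lay above both placebo libraries, but the log2 ratio of 1.202 had a standard error of 0.79 (edgeR adjusted p = 0.616). In batch 2 alone, with Progesterone 2 and 3 against Placebo 2, it was 0.49 and called (edgeR adjusted p = 0.0204). Leaving out Placebo 1 or Progesterone 1 gave 0.50 and 0.51. In both fits the batch term takes up the library left alone in batch 1, so they repeat the batch 2 contrast. The log2 ratio was 4.01 without Placebo 2, where the remaining placebo library has 4 Igf1 UMIs in 15 macrophages. It was 1.74 and called without Progesterone 3, and 1.45 without Progesterone 2 (edgeR adjusted p = 0.984). Thinned to 2000 UMIs, 17.4%, 26.2% and 23.5% of macrophages held Igf1 in Progesterone 1, 2 and 3 against 0 of 15 cells and 17.2% in Placebo 1 and 2; the unthinned shares were 34.3%, 49.1% and 47.7% against 6.67% and 39.6%. Cluster makeup differed as well: the Igf1-rich cluster 3 held 166, 812 and 470 macrophages in Progesterone 1, 2 and 3 against 3 and 238 in Placebo 1 and 2, and cluster 13 held 12, 90 and 69 against 0 and 315. The summed level of 10 macrophage markers in the class was 12144, 32298 and 30004 CPM in Progesterone 1, 2 and 3 against 3815 and 21233 CPM in Placebo 1 and 2, and its part in the Igf1 difference was not tested. Within cluster 3 the Placebo 2 level of Igf1, 304 CPM, lay among the progesterone levels of 208 to 372 CPM.

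Igf1r was not called in macrophages, with 119, 108 and 138 CPM in Progesterone 1, 2 and 3 against 133 and 118 CPM in Placebo 1 and 2, values that overlapped (log2 ratio 0.00). Igf2r had 19.8, 11.9 and 8.7 CPM against 46.7 and 17.2 CPM (log2 ratio -0.81, edgeR adjusted p = 0.177), and Igfbp6 had 12.6, 11.2 and 7.4 CPM against 16.7 and 18.0 CPM (log2 ratio -0.79, edgeR adjusted p = 0.219). Igfbp6 was lower in all 3 progesterone libraries than in either placebo library, whereas Igf2r overlapped. In batch 2 alone both were called lower, with log2 ratios of -0.69 (edgeR adjusted p = 0.0196) for Igf2r and -0.89 (edgeR adjusted p = 0.0015) for Igfbp6, and 6 of 9 genes tested were called there, as were 2239 of all 12332 genes. Without Placebo 1 the calls were again 6, among 2187 of all 12531 genes, and without Progesterone 1 they were 7, among 2191 of 12329. Both of these fits repeat the batch 2 contrast, because the batch term takes up the library left alone in batch 1. Without Progesterone 2 the calls were 0, among 73 of 11396. Igfbp4 had 10.9, 28.3 and 23.3 CPM against 0 and 105 CPM (log2 ratio -1.62, edgeR adjusted p = 0.312); the 2 placebo libraries lay on either side of the progesterone libraries. No pathway gene was called in macrophages.

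**Figure D4:**
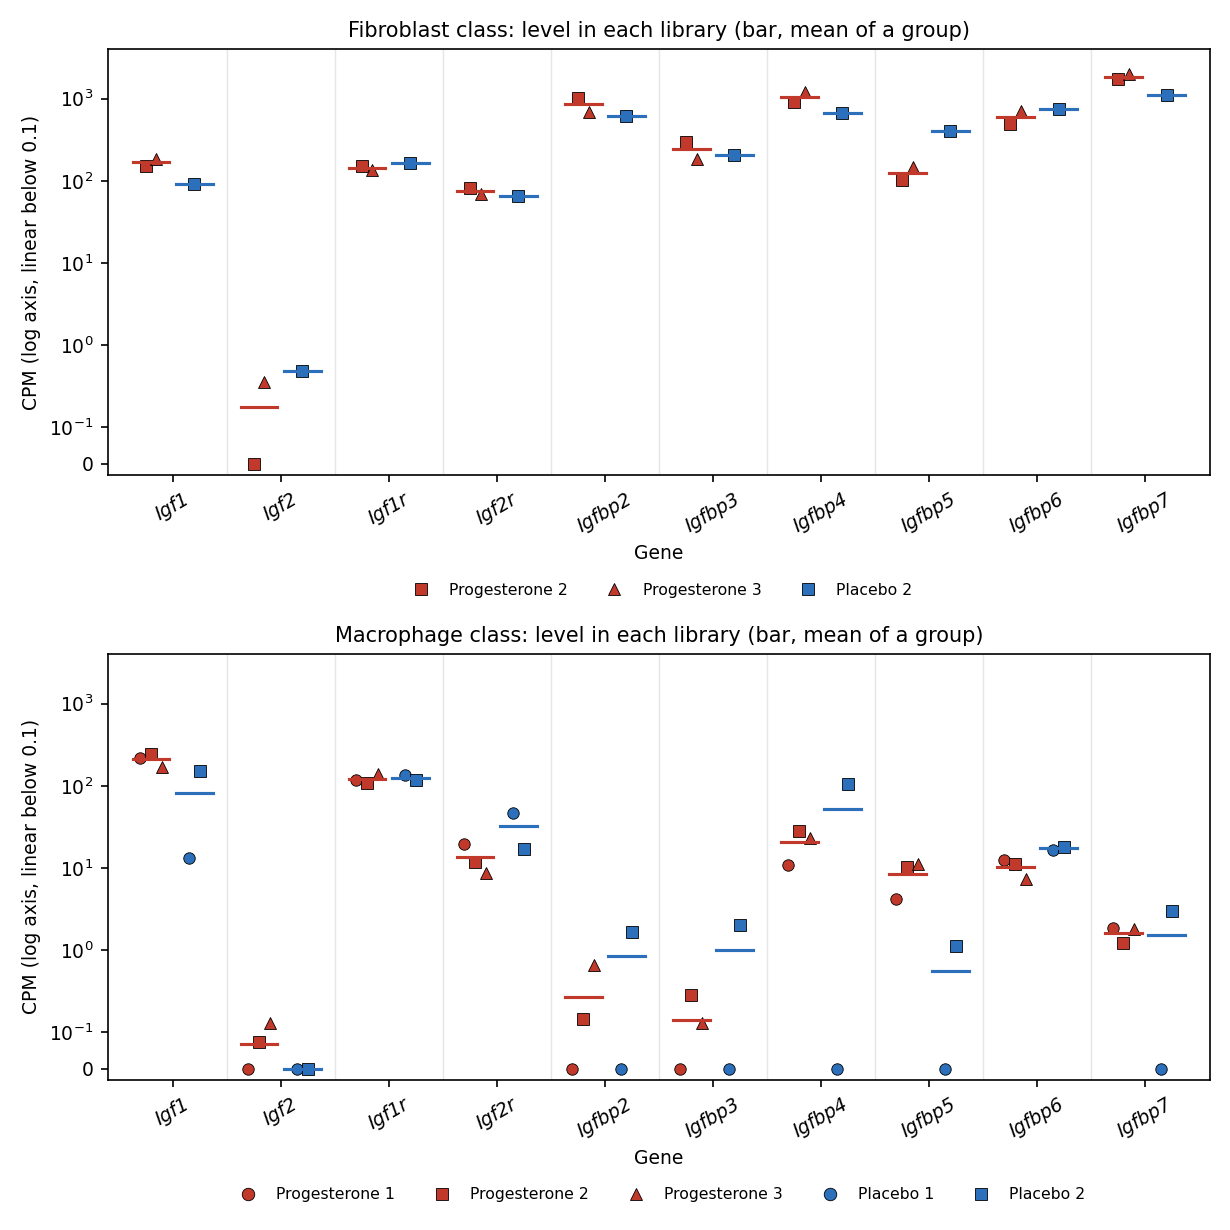
Level (CPM, log axis that is linear under 0.1) of the 10 genes in fibroblasts and in macrophages of each library; points are libraries, progesterone left of placebo, bars are group means, and a bar over a single library is that library's value. In fibroblasts Igfbp5 is lower in progesterone (101 and 147 CPM) than in placebo (404 CPM), and in macrophages Igf1 in Placebo 1 (13.3 CPM from 15 cells) lies under the other 4 libraries.

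Neutrophils gave 1 call among 4 genes tested, against 11.9% of all 4142 genes called and 5.67% called lower, with Placebo 1 and its 16 neutrophils as the one placebo library. Igfbp4 had 35.6 CPM (56 UMIs), 0 CPM and 13.8 CPM (1 UMI) in Progesterone 1, 2 and 3 against 179 CPM (45 UMIs) in Placebo 1 (log2 ratio -2.64, standard error 0.83, edgeR adjusted p = 0.0413; called in 4 of 9 alternatives). It was not called without Progesterone 2 (edgeR adjusted p = 0.191) or without Progesterone 3 (0.0779), and with batch as a block 3 of the 4 genes tested were called, among 1155 of all 4142 genes. The neutrophils of the groups lay in different clusters: cluster 23.0 held 68 of 377, 1 of 26 and 1 of 30 in Progesterone 1, 2 and 3 against 13 of 16 in Placebo 1, and its part in these differences was not tested. The Igfbp4 UMIs came from 3 of the 16 placebo cells, with 22 of the 45 in a single cell, and from 10 of 377 cells of Progesterone 1. T cells, 4105 of the 4744 cells of Placebo 1, had 170 CPM of Igfbp4 and 416 CPM of Igf1r in that library. The part of T cell RNA in the neutrophil values of Placebo 1 was not tested. Igf1r had 2239, 1015 and 1105 CPM against 464 CPM (log2 ratio 1.73, edgeR adjusted p = 0.103) and was not called, although all progesterone libraries were higher. Igfbp6 had 62.2, 330 and 110 CPM against 23.8 CPM (log2 ratio 2.57, edgeR adjusted p = 0.101) and Igf2r had 228, 50.7 and 27.6 CPM against 19.8 CPM (log2 ratio 2.44, edgeR adjusted p = 0.153). Igfbp6 in neutrophils was 66.1% and 15.7% of the fibroblast level in Progesterone 2 and 3, where fibroblast markers were 0.15% and 0.16% of theirs.

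No gene of the 10 was called in T cells, where 5 were tested and 0.0133% of all genes were called. Of these 5, 1 had an unadjusted edgeR p under 0.05, and DESeq2 called 0. Igf1r had 366, 363 and 159 CPM in Progesterone 1, 2 and 3 against 416 and 281 CPM in Placebo 1 and 2, with overlap (log2 ratio -0.23). Igf2r had 62.1, 58.9 and 66.6 CPM against 68.5 and 32.9 CPM (log2 ratio 0.24). Igfbp4 had 82.6, 45.3 and 0 CPM against 170 and 35.7 CPM (log2 ratio -1.08, edgeR adjusted p = 0.745), and Igfbp5 had a log2 ratio of 2.999 (edgeR adjusted p = 0.330). The Igfbp4-rich cluster 0 held 24.9%, 13.0% and 1.52% of the T cells of Progesterone 1, 2 and 3. It held 65.8% and 18.3% of those of Placebo 1 and 2, and its part in the Igfbp4 values was not tested.

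Endothelial cells were compared with 34 cells of Progesterone 1 against 17 and 68 cells of Placebo 1 and 2. Of 8 genes tested 1 was called, against 0.0460% of all genes: Igfbp5, with a log2 ratio of 5.24, a standard error of 0.75 and an edgeR adjusted p of 0.0117. All 62 of its UMIs lay in 1 of the 34 Progesterone 1 cells, and without that cell Progesterone 1 had 0 UMIs and none of the 10 genes was called. Igfbp3 had 846 CPM in Progesterone 1 against 26.5 and 488 CPM in Placebo 1 and 2, and Igfbp4 had 772 CPM against 319 and 254 CPM. Igfbp7 had 2556 CPM against 982 and 2646 CPM, and Igf1r had 307 CPM against 106 and 173 CPM, none of these called.

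No gene of the 10 passed edgeR's adjusted threshold in B cells, NK cells, cDC or pDC. In B cells 2 were tested, against 0.510% of all genes called; Igf1r had 30.2 and 13.2 CPM in Progesterone 1 and 2 against 3.0 and 6.7 CPM in Placebo 1 and 2, a log2 ratio of 2.42 with an edgeR unadjusted p of 0.0036 and an adjusted p of 0.244, the 1 unadjusted p under 0.05 in that class. In cDC 3 were tested with 1 unadjusted p under 0.05 and 2.28% of all genes called, and in pDC 2 were tested with 0 and 0.213%. In NK cells 3 were tested with 0, and no gene of 9601 was called, where 237 had an unadjusted p under 0.05 and DESeq2 called 0. DESeq2 called 0 of the 10 genes in B cells, cDC, NK cells and pDC. Igf1r in pDC had 244, 183 and 287 CPM in Progesterone 1, 2 and 3 against 167 CPM in Placebo 2 (log2 ratio 0.50), each higher.

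**Figure D5:**
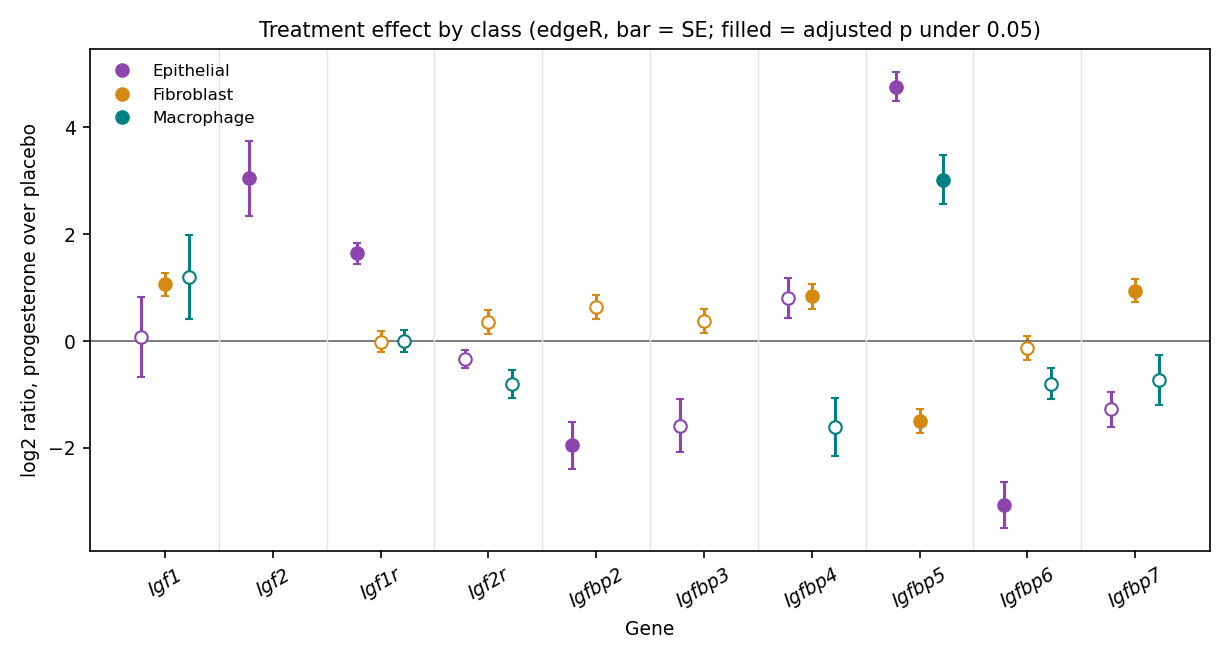
Log2 ratio, progesterone over placebo, of each gene in epithelial cells, fibroblasts and macrophages where it was tested, with bars of 1 standard error from edgeR; filled points passed an adjusted p of 0.05. Igfbp5 is positive in epithelial cells (4.76) and macrophages (3.02) and negative in fibroblasts (-1.49).

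Whether the treatment difference itself differed between classes was tested by the class by treatment term with library as a block. Between epithelial cells and fibroblasts, 7 of the 10 genes differed by edgeR's quasi-likelihood test with Benjamini-Hochberg adjustment, against 13.1% of all 16397 genes. The largest was Igfbp5, with a difference of 6.29 on the log2 scale and a standard error of 0.28. Igf1r differed by 1.80 with a standard error of 0.26. With all sums thinned to the lowest total, these 2 were the ones called, at 6.62 and 1.90. Of the other 5, the difference shrank to -0.51 for Igfbp6, -0.76 for Igf1, -1.07 for Igfbp3 and -1.51 for Igfbp7. That of Igfbp2 could not be estimated after thinning, with a standard error of 5367. Between macrophages and fibroblasts 6 of the 10 differed, against 5.14% of all 13793 genes, with Igfbp5 at 4.61 and Igfbp4 at -2.72; these 2 were again the ones called after thinning, at 3.41 and -2.77. Between epithelial cells and macrophages none was called, against 0.0973% of all 14390 genes; Igf1r had a difference of 1.67 (edgeR adjusted p = 0.0926) and Igfbp4 one of 2.92 (edgeR adjusted p = 0.157), and 3 genes had an unadjusted p under 0.05. The 2 fits that include fibroblasts rest on Progesterone 2, Progesterone 3 and Placebo 2 alone, with a single placebo library. Their calls and standard errors therefore do not measure the spread between placebo tumours. The part of fibroblast RNA in the epithelial and macrophage levels of the binding proteins was not tested.

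The pattern of each gene over the 38 class-by-library sums was set beside that of 13445 genes by Pearson's r on log levels, as a description, since sums of one library share its depth and free RNA. Igf1 was most like Colec12 (r = 0.954), Rusc2 (0.943) and Gas6 (0.924). Igfbp2 was most like Rarres1 (0.987), Igfbp3 like Tmem47 (0.967), Igfbp7 like Tspan6 (0.955), Igfbp6 like Fap (0.873) and Igfbp4 like Abi3bp (0.790). Igfbp5 was most like Agtr1a (0.897), Zfp462 (0.847) and Lrrn2 (0.830). The receptors had weaker matches, Igf1r with Hif1a (0.735) and Igf2r with Myh9 (0.695), and Igf2 had too few UMIs to be matched.

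By the GENCODE M21 annotation of GRCm38, Igf1 lies at chr10:87858265-87937042 on the plus strand, Igf2 at chr7:142650766-142666816 on the minus strand, Igf1r at chr7:67952827-68233668 on the plus strand and Igf2r at chr17:12682406-12769664 on the minus strand. Igfbp2 at chr1:72824503-72852474 on the plus strand and Igfbp5 at chr1:72857932-72874884 on the minus strand end toward each other with 5.46 kb between them. These neighbours differed in level between classes: epithelial cells of Progesterone 2 had 360 CPM of Igfbp5 and 23 UMIs of Igfbp2. Fibroblasts of Progesterone 2 held both, with 101 CPM of Igfbp5 and 1016 CPM of Igfbp2. Igfbp3 lies at chr11:7206086-7213923 on the minus strand, Igfbp4 at chr11:99041244-99054392 on the plus strand, Igfbp6 at chr15:102144362-102149511 on the plus strand and Igfbp7 at chr5:77349240-77408041 on the minus strand. The RefSeq start of Igf1r used for the stretch printed above lies 570 bases before its GENCODE start, and that of Igfbp5 differs by 19 bases.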

How the data were processed

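The data are droplet single-cell libraries (10x Genomics 3' chemistry, per the labels' protocols) of 5 tumours or tumour parts, 3 with progesterone and 2 with placebo pellets. The authors deposited filtered matrices of raw UMI counts per gene and cell; per the file headers they were made with Cell Ranger 8.0.1. The build mm10 and another version, Cell Ranger 7.0.0, stand in the submitters' processing notes. No column of values lacked a sample (0). Total UMI counts of the libraries ranged from 23409215 to 204786073, which sets the counting precision; 95% intervals for shares are exact (Clopper-Pearson) and, like the floor of 3 counts, cover counting error only.

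Cells with at least 250 genes were kept, and cells scoring highest against simulated doublets were removed at 0.8% per 1000 barcodes. Cells were clustered with the Leiden method (leidenalg 0.10.2, resolution 1, 20 neighbours, 30 principal components, 2000 variable genes), leaving out the 10 IGF genes and the 36 pathway genes. Clusters were named from 17 marker lists when at least 3 markers were detected, the list's score (mean log2 CPM of its markers above the low end of all clusters) reached 3 and exceeded the next list's by 1.5, and stayed unnamed when their UMI number was low and no marker of the class was among the top 10 genes. Mitochondrial genes carried 0 symbols in the tables.

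UMIs were summed per library and class with at least 10 cells. R 4.3.3 with edgeR 4.0.16 (TMM scaling, the quasi-likelihood test, filterByExpr, prior count of 2, Benjamini-Hochberg adjustment over all genes of a class, threshold 0.05) gave log2 ratios; the standard error is the log2 ratio divided by the root of its F statistic. Batch was a term for macrophages, T cells and B cells, where both batches hold both treatments; the labels give the batch, which is what pairs libraries. The test was checked on simulated data. Alternatives were DESeq2 1.42.0, no filter on low counts, Leiden resolution 2, doublets kept, at least 20 cells, batch 2 alone, with and without the replicate block, thinning to the lowest total, and leaving out each library; naming of low-UMI clusters, leaving out 1 endothelial cell and refitting fibroblasts with the same libraries were added after seeing the data. For shares of cells, each cell was thinned to 2000 UMIs.

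Named genes are the 10 IGF genes, at most 4 called pathway genes per class with the largest log2 ratio (1 of them is not reported here), and the 3 genes most like each IGF gene. These genes, the lists and the tests were chosen with earlier results of these data known, Igfbp5 in epithelial cells among them. Coordinates are from GENCODE M21 on GRCm38; upstream sequences are from RefSeq's GRCm38.p6 table, in which both genes printed were matched by symbol.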

Additional observations from a re-analysis of the deposited data

Results flagged for a closer look

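The treatment effect differed between epithelial cells and fibroblasts for 7 of the 10 IGF genes, against 13.1% of all 16397 genes. Between macrophages and fibroblasts it differed for 6 of the 10, against 5.14% of all 13793 genes. Both counts come from edgeR's test of the class by treatment term with library as a block. Values are the log2 ratio of progesterone over placebo in the first class minus that in the second. For epithelial cells against fibroblasts the difference was 6.29 for Igfbp5, 1.80 for Igf1r, -1.06 for Igf1 (edgeR adjusted p = 0.0403), -1.89 for Igfbp3, -2.12 for Igfbp7, -2.43 for Igfbp2 and -2.88 for Igfbp6. For macrophages against fibroblasts it was 4.61 for Igfbp5, -0.996 for Igf2r (edgeR adjusted p = 0.0459), -1.74 for Igfbp7, -2.27 for Igfbp2, -2.55 for Igfbp3 and -2.72 for Igfbp4. The epithelial and macrophage levels of Igfbp2 and Igfbp3 were under 1 CPM in the progesterone libraries, against 621 to 1016 CPM of Igfbp2 and 187 to 297 CPM of Igfbp3 in fibroblasts. Macrophage Igfbp2, Igfbp3 and Igfbp7 were 0.27%, 0.96% and 0.27% of the fibroblast level in Placebo 2, where fibroblast markers were 0.23% of theirs. In Progesterone 2 the shares were 0.01%, 0.10% and 0.07% against 0.11%, and in Progesterone 3 0.09%, 0.07% and 0.09% against 0.10%. In epithelial cells they were 0.07%, 0.14% and 0.17% against 0.08% in Placebo 2, and 0.01%, 0.04% and 0.05% against 0.04% in each of Progesterone 2 and 3. Epithelial Igfbp6 was 0.25% of the fibroblast level in Placebo 2, and 0.04% and 0.03% in Progesterone 2 and 3. Macrophage Igfbp4 was 15.6% of the fibroblast level in Placebo 2, and 3.14% and 1.95% in Progesterone 2 and 3. The part of fibroblast RNA in these differences was not tested. Macrophage Igfbp5 was 10.1 and 11.2 CPM in Progesterone 2 and 3, or 2.82% and 2.89% of the epithelial level. Epithelial markers in macrophages were 4.13% and 3.42% of theirs. In Placebo 2 these shares were 8.63% and 3.72%, and the part of epithelial RNA was not tested. After thinning all sums to the lowest total, 2 of the 7 and 2 of the 6 genes were called: Igfbp5 and Igf1r, and Igfbp5 and Igfbp4. The share of all genes called after thinning is not given here. Each fit rests on Progesterone 2 and 3 against Placebo 2, with 1 residual degree of freedom.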

How the results depend on the processing

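The epithelial calls of Igfbp5 and Igf1r held under all 11 alternatives, each of which includes Placebo 2, whereas the counts of IGF genes called moved. In epithelial cells the count was 5, with 2117 of all 16235 genes called. It was 3 by DESeq2 (1918 of all genes), 9 in batch 2 alone (7935), 9 with the replicate block (7974), 2 with doublets kept (691) and 2 when libraries were thinned to the lowest total (664, with 3 IGF genes tested); leaving out single libraries gave 2 to 9. In fibroblasts it was 4 (545 of all genes), against 2 by DESeq2 (156). It was 0 at Leiden resolution 2, with doublets kept or, added after seeing the data, with no rule on low UMIs. In these 3 fits Progesterone 1 entered as well and 0 of all genes were called; with the same libraries as in the comparison reported, also added, the counts were 4, 4 and 3. In macrophages it was 1, with 134 of all genes called, against 6 in batch 2 alone (2239), 3 with no filter on low counts (751), 0 with no replicate block (0), 0 with at least 20 cells (0) and 0 with thinned libraries (20, with 2 IGF genes tested); leaving out single libraries gave 0 to 7. In neutrophils it was 1 (494 of all genes), against 0 by DESeq2 (442), 0 with no filter (221) and 3 of 4 tested with the replicate block (1155 of all 4142 genes). Leaving out single libraries gave 0 to 2 there, and the count over all genes moved as well. In endothelial cells it was 1, against 0 at resolution 2, 0 with doublets kept and 0 without the cell that held Igfbp5, an alternative chosen after seeing the data. In T cells none was called without Placebo 1 or without any 1 of the progesterone libraries. Igfbp7 was called without Placebo 2, where Placebo 1 alone is left and many more of all genes were called. The causes were not tested. With or without the replicate block the count stayed at 0 in T cells, B cells and pDC. Of the genes whose effect differed between classes, 7 for epithelial cells against fibroblasts and 6 for macrophages against fibroblasts were 2 and 2 after thinning. For epithelial cells against macrophages 0 became 0 to 4 on leaving out single libraries. Shares over all genes are not given here for these thinned and leave-out fits.

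On leaving out single libraries, Igfbp4 in macrophages ranged from a log2 ratio of -1.98 without Placebo 1 to 5.25 without Placebo 2 (edgeR adjusted p = 0.101), where it reversed in a fit whose remaining placebo library, Placebo 1, has 0 UMIs from 15 cells. The unthinned shares of cells with a UMI were higher than the thinned ones: for Igfbp5 in epithelial cells 62.2%, 79.7% and 79.3% in Progesterone 1, 2 and 3 against 12.5% in Placebo 2, for Igf1r in epithelial cells 51.1%, 81.6% and 80.6% against 49.1%, and for Igf1 in macrophages 34.3%, 49.1% and 47.7% against 39.6%. Over single genes, 129 values kept their call or its absence, 48 lost it, 12 gained it and 1 reversed. The median of all genes in neutrophils was 0.17 by edgeR and 0.04 by DESeq2 on the log2 scale. The calls there were 259 higher and 235 lower by edgeR and 285 higher and 157 lower by DESeq2. These methods differ in more than scaling, and the cause was not tested. In B cells, leaving out single libraries, which ends the batch term, gave 0. For fibroblasts, cDC, NK cells and endothelial cells it leaves no residual degree of freedom or 1 treatment, and no test. The limits are 1 placebo library with epithelial cells and fibroblasts, a Placebo 1 library of mostly T cells, and depth: Igf2 and the epithelial binding proteins other than Igfbp5 rest on few UMIs.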

Other observations

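Cells of unnamed clusters, most of which scored for a class but failed another naming rule, held IGF RNA as well. In them Igfbp5 averaged 141 ± 83.1 CPM (SD, n = 5 libraries) and Igf1r 56.3 ± 9.02 CPM. Igf1 averaged 37.8 ± 31.8 CPM and Igfbp7 42.2 ± 57.7 CPM. The unnamed cluster 24.1 scored best as epithelial and was led by Wfdc18, Csn3 and Ltf, which belong to the milk and secretory programme of the mammary gland. It had the highest Igfbp5 levels printed here, 2391 CPM in its 11 Progesterone 2 cells and 1895 CPM in its 34 Placebo 2 cells.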
